A study of Mus musculus with 9 samples.

Results

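Expression of 10 genes of the epithelial surface and cytoskeleton was followed through RNA-seq libraries of mouse embryonic stem (ES) cells: the keratins Krt7, Krt8, Krt18 and Krt19, the cadherins Cdh1, Cdh2 and Cdh3, the adhesion protein gene Epcam, and the claudins Cldn6 and Cldn7. They were chosen by name, and all 10 were found among the 40213 gene symbols of the count tables and had enough counts to be tested, as did 16562 genes in all. EWS-OCT4 cells (3 libraries) are a stable line in which the pluripotency factor OCT4 is joined to EWS, an RNA-binding protein rearranged in Ewing sarcoma. OCT4 cells (3 libraries) are a stable line named for OCT4 alone. Both are labelled Niwa, and both received doxycycline at 1 µg/ml to lower their endogenous OCT4. They were set against the ES line J1 (3 libraries), and all cells were grown in ES medium with LIF, a cytokine that sustains self-renewal. The labels do not say whether J1 also received doxycycline, whether the libraries of a group came from separate cultures, whether a stable line is 1 clone, or which promoter drives the introduced gene. Spread between libraries, on which the p-values rest, may thus be purely technical, and against J1 the host line and the construct cannot be told apart.

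Keratins of simple epithelia form filaments from pairs of a type II chain (Krt7, Krt8) and a type I chain (Krt18, Krt19), and Krt8 with Krt18 is the first pair made in the mouse embryo, where it marks the trophectoderm. Cdh1 encodes E-cadherin, the adhesion protein that holds ES cells together in compact colonies, while N-cadherin (Cdh2) is typical of neural and mesenchymal cells and P-cadherin (Cdh3) of placenta and skin. EPCAM is a surface glycoprotein of epithelia and ES cells that binds claudin 7, and claudins are the membrane proteins that seal tight junctions.

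Promoter windows of 300 bases, from 250 before to 50 after the annotated gene start, were found in RefSeq (GRCm38.p6) for 6 of the 10 genes. There was none for Krt19, Cdh1, Cdh2 or Cdh3, so the motifs were not examined in these. Windows are shown for a keratin pair that was higher in both stable lines than in J1, Krt8 and Krt18, and for a pair that was lower in both, Epcam and Cldn6. Capitals mark matches on either strand to a TATA box (TATAAA), a GC box (GGGCGG), an E-box of the kind bound by Snail and Zeb repressors (CACCTG), a grainyhead motif (AACCNGGTT) or the octamer (ATGCAAAT).
Krt8 (chr15:102004293-102004592, minus strand): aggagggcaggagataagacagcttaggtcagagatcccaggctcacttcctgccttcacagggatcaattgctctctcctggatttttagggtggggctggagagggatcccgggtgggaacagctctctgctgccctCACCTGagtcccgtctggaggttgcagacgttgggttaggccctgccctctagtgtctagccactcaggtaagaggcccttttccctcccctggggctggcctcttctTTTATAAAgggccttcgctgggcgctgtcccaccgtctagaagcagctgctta
Krt18 (chr15:102027966-102028265, plus strand): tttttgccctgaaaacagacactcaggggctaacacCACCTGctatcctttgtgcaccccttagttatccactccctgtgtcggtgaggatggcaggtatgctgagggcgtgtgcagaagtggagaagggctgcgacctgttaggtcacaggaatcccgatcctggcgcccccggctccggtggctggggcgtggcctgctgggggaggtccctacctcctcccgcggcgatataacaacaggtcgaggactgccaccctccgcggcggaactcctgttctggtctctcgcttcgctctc
Epcam (chr17:87635729-87636028, plus strand): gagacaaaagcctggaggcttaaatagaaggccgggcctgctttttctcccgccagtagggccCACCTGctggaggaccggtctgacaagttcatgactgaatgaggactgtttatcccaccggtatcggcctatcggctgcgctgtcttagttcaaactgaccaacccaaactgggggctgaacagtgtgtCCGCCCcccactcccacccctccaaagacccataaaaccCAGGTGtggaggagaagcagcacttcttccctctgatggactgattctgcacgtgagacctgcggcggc
Cldn6 (chr17:23679115-23679414, plus strand): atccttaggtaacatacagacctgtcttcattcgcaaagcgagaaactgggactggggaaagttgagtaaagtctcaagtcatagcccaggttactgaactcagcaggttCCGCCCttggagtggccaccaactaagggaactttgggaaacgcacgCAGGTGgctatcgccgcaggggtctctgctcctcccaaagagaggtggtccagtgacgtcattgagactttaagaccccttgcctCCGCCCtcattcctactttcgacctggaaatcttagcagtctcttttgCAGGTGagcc
The CACCTG E-box occurred once in the Krt8, Krt18 and Krt7 windows and at 2 places in those of Epcam and Cldn6, so it was present in genes that were higher and in genes that were lower. It was also present in 20.2% of all 32851 windows of this length. A GC box was found in the Krt7, Epcam and Cldn6 windows and in 35.7% of all windows. Among the windows shown, TATAAA was matched only in Krt8, where its matches on both strands overlap, and in 13.6% of all windows. Of the 2 windows of Cldn7, the first held none of these motifs and the second held 1 GC box and 2 E-boxes. Neither the octamer nor the grainyhead motif was matched in any window of these genes, against 1.74% and 0.271% of all windows.

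Library totals ran from 21149358 to 24786305 counts. Pou5f1, the mouse gene for OCT4, had 25.6, 29.3 and 25.6 CPM (the count scaled to library size) in EWS-OCT4 cells, 165, 168 and 162 CPM in OCT4 cells, and 522, 639 and 545 CPM in J1, and reads of an introduced sequence may or may not be counted there. The ES cell markers Nanog, Sox2, Zfp42 and Esrrb were counted in every group, the 5 ES markers, Pou5f1 included, summing to 2240 to 2340 CPM in EWS-OCT4 cells, 1970 to 2030 CPM in OCT4 cells and 3250 to 3650 CPM in J1. Against the direction of the sum, Nanog was higher in both stable lines, averaging 481 and 509 CPM against 261 CPM in J1. Zfp42 averaged 758 CPM in EWS-OCT4 cells, 429 CPM in OCT4 cells and 1425 CPM in J1. Sox2 was lower than in J1 in both lines, and Esrrb only in OCT4 cells. Against J1, genes of chromosomes 8 and 11 were lower as a whole. Their median log2 fold changes were -0.41 and -0.46 in EWS-OCT4 cells, with 0.05 over all autosomes, and -0.49 and -0.49 in OCT4 cells, with -0.03 over all autosomes. For EWS-OCT4 against OCT4 the medians were 0.08 and 0.02, with 0.06 over all autosomes. Chromosome 12 was also lower against J1, at -0.285 in EWS-OCT4 cells and -0.241 in OCT4 cells. Of the genes followed here, Cdh1 and Cdh3 are on chromosome 8 and Krt19 and Cldn7 on chromosome 11, while Krt7, Krt8 and Krt18 are on chromosome 15, Epcam and Cldn6 on chromosome 17 and Cdh2 on chromosome 18.

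Per kilobase of transcript, which allows levels of different genes to be compared, E-cadherin RNA was the most abundant of the 10 in every group. It stood at 78.6 ± 2.68 CPM per kilobase in EWS-OCT4 cells, 76.1 ± 1.06 in OCT4 cells and 186 ± 6.59 in J1 (SD, n = 3). Behind it the order differed. In the stable lines Krt18 and Krt8 came next, at 38.0 ± 2.52 and 37.3 ± 0.738 CPM per kilobase in EWS-OCT4 cells, where they overlapped, and at 55.7 ± 2.82 and 34.6 ± 1.09 in OCT4 cells. In J1 the next was Epcam with 52.1 ± 2.32 CPM per kilobase, followed by Cldn6, Krt18 and Cdh3 at 20 ± 0.959, 18.4 ± 2.21 and 17.2 ± 0.895, where neighbours differed by less than the larger SD, and by Krt8 at 11.1 ± 0.733. Cdh2 was the lowest in every group, with 0.779 ± 0.0145, 0.393 ± 0.0364 and 0.992 ± 0.193 CPM per kilobase in EWS-OCT4 cells, OCT4 cells and J1.

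**Figure D1:**
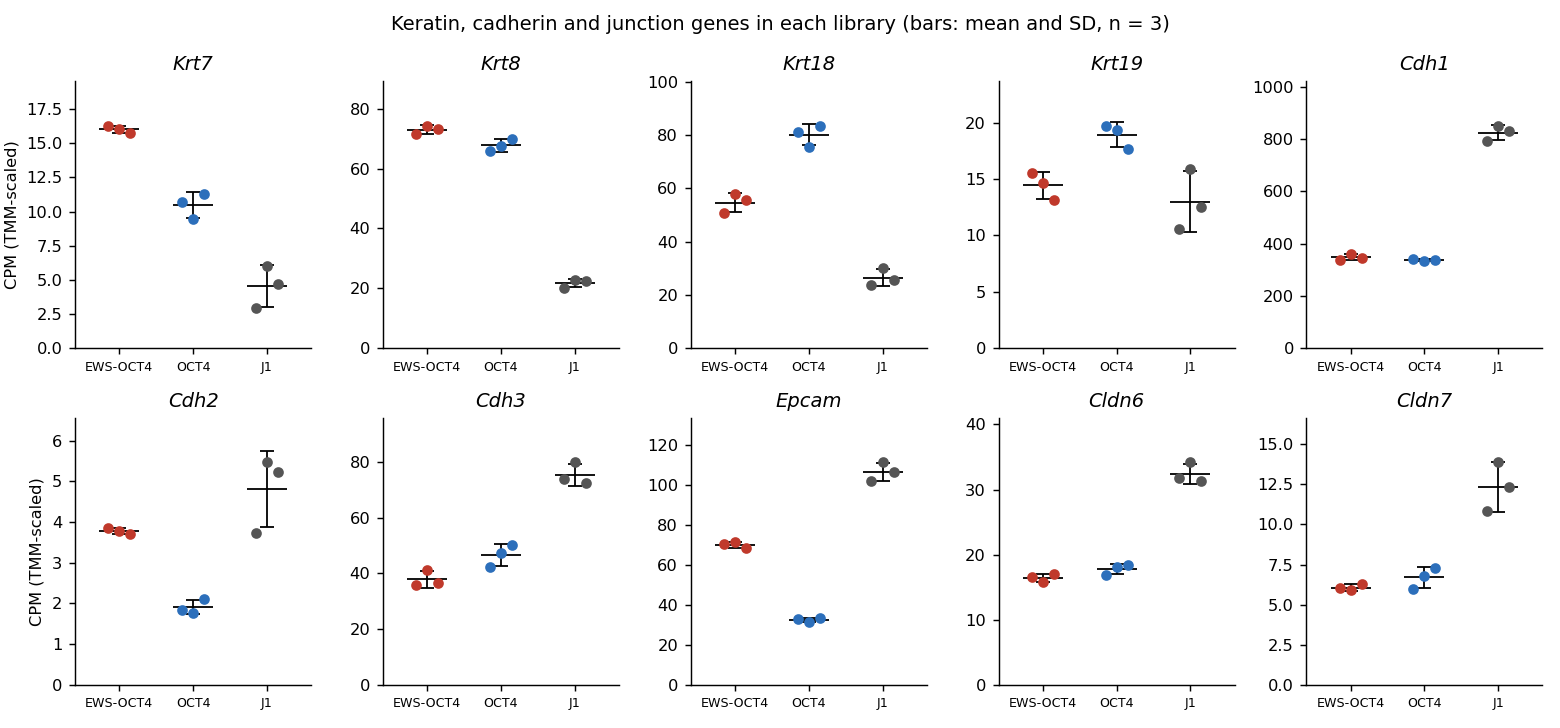
CPM (scaled by TMM factors, vertical axes from 0) of each gene in each library, with EWS-OCT4 cells left, OCT4 cells in the middle and J1 right; points are libraries, bars the mean and SD (n = 3). Krt7, Krt8 and Krt18 stand higher in both stable lines than in J1, and Cdh1, Cdh3, Epcam, Cldn6 and Cldn7 stand lower.

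Krt7, Krt8 and Krt18 were higher in both stable lines than in J1, and Krt19 was higher in OCT4 cells. Krt8 had 71.5, 74.4 and 73.2 CPM in EWS-OCT4 cells, 65.7, 67.5 and 70.0 CPM in OCT4 cells, and 20.1, 22.7 and 22.5 CPM in J1. All libraries of both stable lines lay far above those of J1, and the EWS-OCT4 libraries lay just above the OCT4 libraries. Krt18, the type I partner of Krt8, had 50.6, 57.7 and 55.5 CPM in EWS-OCT4 cells, 81.2, 75.6 and 83.5 CPM in OCT4 cells, and 23.8, 29.9 and 25.4 CPM in J1. Here OCT4 cells were highest, EWS-OCT4 cells in between and J1 lowest, without overlap. Krt7, a type II keratin of ducts and other simple epithelia, had 16.3, 16.0 and 15.7 CPM in EWS-OCT4 cells, 10.7, 9.44 and 11.3 CPM in OCT4 cells, and 2.93, 5.98 and 4.70 CPM in J1. The order was thus reversed between the stable lines relative to Krt18, with EWS-OCT4 cells on top. Krt19, a small type I keratin, had 15.5, 14.7 and 13.2 CPM in EWS-OCT4 cells, 19.8, 19.4 and 17.7 CPM in OCT4 cells, and 10.6, 15.9 and 12.5 CPM in J1. It was highest in OCT4 cells, while the EWS-OCT4 libraries and J1 overlapped. In these bulk libraries, more cells of a keratin-bearing kind and more keratin RNA per cell cannot be told apart.

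In the fit, Krt8 was higher than in J1 by a log2 fold change of 1.75 (SE 0.0717) in EWS-OCT4 cells and 1.64 (SE 0.0717) in OCT4 cells, and adjusted p was 2.07e-12 and 1.78e-12 (quasi-likelihood test of edgeR, adjusted by Benjamini-Hochberg over all genes). Krt18 was 2.07-fold higher in EWS-OCT4 cells than in J1 and 3.04-fold higher in OCT4 cells (edgeR, adjusted p = 1.46e-08 and 2.66e-11), and Krt7 was 3.53-fold and 2.31-fold higher (adjusted p = 1.2e-07 and 1.18e-05). Krt19 rose in OCT4 cells against J1 (log2 fold change 0.54, SE 0.123, adjusted p = 0.000834) and did not pass in EWS-OCT4 cells (0.15, 95% interval -0.11 to 0.42, adjusted p = 0.307). That second value depended on a J1 library: without J1 replicate 2, the highest in J1 for Krt19, it was 0.33 with adjusted p = 0.0152. Measured against the lower median of chromosome 11 it was 0.65 (adjusted p = 0.000184), and in OCT4 cells 1.03 (adjusted p = 6.1e-07). Between the stable lines, EWS-OCT4 against OCT4, Krt7 rose by 0.61 (log2, SE 0.155, adjusted p = 0.00243), and Krt18 and Krt19 fell by 0.55 (SE 0.0827, adjusted p = 1.37e-05) and 0.39 (SE 0.122, adjusted p = 0.00958). Leaving out EWS-OCT4 replicate 3 ended the Krt19 call (adjusted p = 0.0604). Krt8 did not pass there (0.11, 95% interval -0.03 to 0.25, adjusted p = 0.165), except when only the 6 libraries compared were fitted (0.13, adjusted p = 0.0371).

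The balance of Krt8 and Krt18, the chains of a common filament, was measured as the ratio of their counts within a library, which needs no scaling between libraries. Krt8 counts were 1.41, 1.29 and 1.32 times those of Krt18 in EWS-OCT4 cells, 0.810, 0.892 and 0.838 times in OCT4 cells, and 0.843, 0.757 and 0.885 times in J1. The EWS-OCT4 libraries stood apart above both other groups, which overlapped. The mean log2 ratio was 0.42 ± 0.0684 in EWS-OCT4 cells, -0.24 ± 0.0709 in OCT4 cells and -0.27 ± 0.115 in J1 (SD, n = 3). The difference was 0.66 (log2) for EWS-OCT4 against OCT4 and 0.70 for EWS-OCT4 against J1, each with two-sided exact permutation p = 0.1, the smallest that 3 against 3 libraries allow, and 0.03 for OCT4 against J1 (exact permutation p = 0.7). Of the 31-base words in the Krt8 transcript, 32.3% also occur in other genes, chiefly the pseudogene Krt8-ps, and 11.4% of those of Krt18 do, so reads of near-identical copies could enter or leave either count. Krt7, Krt8 and Cdh2 overlap a noncoding gene on the opposite strand (Gm671, Gm36026 and Gm15485), and the use of strand in counting is not stated.

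**Figure D2:**
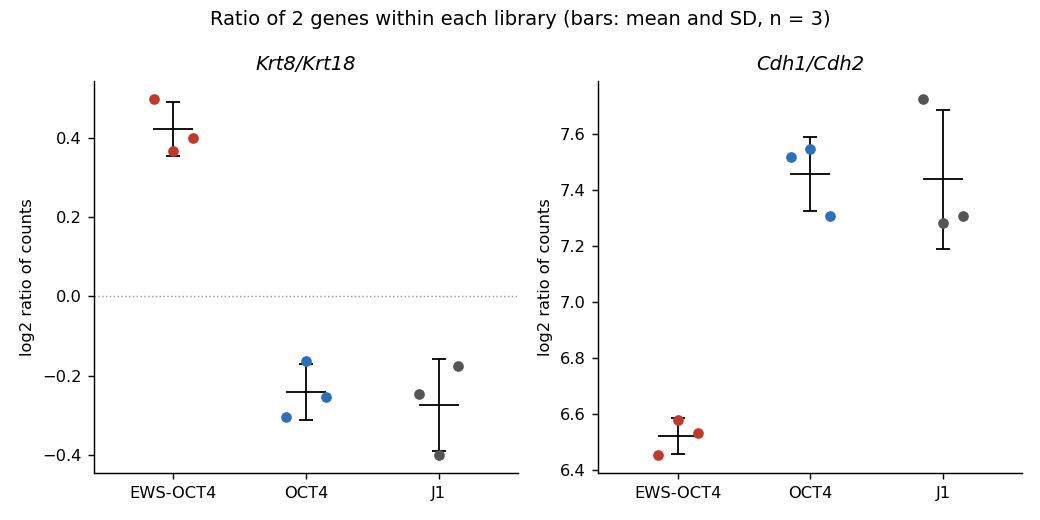
Log2 ratio of the counts of 2 genes within each library, Krt8 over Krt18 at left and Cdh1 over Cdh2 at right, for EWS-OCT4 cells, OCT4 cells and J1; points are libraries, bars the mean and SD (n = 3). In both panels the EWS-OCT4 libraries are separate from the other groups, above them for Krt8/Krt18 (mean 0.42) and below them for Cdh1/Cdh2 (mean 6.52).

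Trophectoderm markers, which accompany Krt7, Krt8 and Krt18 in the embryo, also differed between the groups. The 9 markers used summed to 17.9 to 20.5 CPM in EWS-OCT4 cells, 113 to 135 CPM in OCT4 cells and 10.1 to 12.2 CPM in J1. Counts were found for 8 of the 9 in every group, and Tpbpa was at 0 throughout. Of the 8 tested, 4 were higher and 0 lower in EWS-OCT4 cells than in J1, beside 30.3% and 31.6% of all tested genes. In OCT4 cells 5 were higher and 0 lower than in J1, beside 34.3% and 32.7%. For EWS-OCT4 against OCT4, 0 were higher and 5 lower, beside 31.9% and 34.6%. Tfap2a and Ascl2 were called in no comparison. Hand1, a trophoblast factor, had 2.02, 2.42 and 1.98 CPM in EWS-OCT4 cells and 68.1, 82.5 and 83.9 CPM in OCT4 cells, where it made up most of the sum, against 1.49, 1.91 and 1.93 CPM in J1. Cdx2, the master regulator of trophectoderm, had 1.63, 1.43 and 2.02 CPM in EWS-OCT4 cells, 6.65, 9.12 and 8.11 CPM in OCT4 cells, and 0.0803, 0 and 0.0940 CPM in J1. Between the stable lines, the marker sum, Krt18 and Krt19 were lower in EWS-OCT4 cells than in OCT4 cells, Krt7 was higher, and Krt8 was not called. The part of such cells in the keratin values was not tested.

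Relative to J1, Cdh1 and Cdh3 were lower in EWS-OCT4 and OCT4 cells alike, and Cdh2 was lower in OCT4 cells. Cdh1 had 339, 362 and 344 CPM in EWS-OCT4 cells, 342, 333 and 335 CPM in OCT4 cells, and 794, 852 and 829 CPM in J1. The stable lines overlapped each other and were well below J1. P-cadherin (Cdh3), whose gene neighbours Cdh1, had 35.9, 41.3 and 36.5 CPM in EWS-OCT4 cells, 42.3, 47.3 and 50.2 CPM in OCT4 cells, and 73.9, 79.9 and 72.5 CPM in J1. All 3 groups were apart for Cdh3, EWS-OCT4 cells being lowest. N-cadherin (Cdh2) was scarce, with 80, 87 and 88 counts in the EWS-OCT4 libraries, 40, 39 and 50 in the OCT4 libraries, and 93, 137 and 111 in the J1 libraries. In CPM this was 3.85, 3.77 and 3.71 in EWS-OCT4 cells, 1.85, 1.76 and 2.10 in OCT4 cells, and 3.74, 5.47 and 5.22 in J1. Only OCT4 cells stood apart for Cdh2, below both others.

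E-cadherin RNA fell by 1.24 on the log2 scale in EWS-OCT4 cells (SE 0.0646) and by 1.29 in OCT4 cells (SE 0.0647) against J1, to 0.422 and 0.408 of its level (edgeR, adjusted p = 3.91e-11 and 1.03e-11). Cdh3 was lower by 0.99 in EWS-OCT4 cells and 0.69 in OCT4 cells (log2 fold changes -0.99 and -0.69, edgeR adjusted p = 1.1e-08 and 4.93e-07). Both genes lie on chromosome 8, and measured against that chromosome's median in each library the log2 fold changes against J1 were smaller. For Cdh1 they were -0.78 in EWS-OCT4 cells and -0.81 in OCT4 cells, and for Cdh3 -0.53 and -0.21, all still past the threshold (edgeR, adjusted p up to 0.0204). What sets the genes of this chromosome apart between J1 and the stable lines was not tested. Cdh2 fell by 1.33 in OCT4 cells against J1 (SE 0.183, adjusted p = 4.96e-06) and did not pass in EWS-OCT4 cells (-0.35, 95% interval -0.70 to 0.01, adjusted p = 0.0836). It passed there without J1 replicate 1 (-0.50, adjusted p = 0.0149) and against its chromosome's median (-0.43, adjusted p = 0.0394). Between the stable lines, EWS-OCT4 against OCT4, Cdh2 was 1.98-fold higher (edgeR, adjusted p = 0.000182) and Cdh3 fell by 0.30 (log2, SE 0.0813, adjusted p = 0.00362), while Cdh1 did not pass (0.05, 95% interval -0.09 to 0.18, adjusted p = 0.522).

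The ratio of E-cadherin to N-cadherin counts, a common readout of an epithelial against a mesenchymal state, was 87.5, 95.5 and 92.4 in the EWS-OCT4 libraries, 183, 187 and 158 in the OCT4 libraries, and 212, 155 and 158 in the J1 libraries. The ratio was lower in every EWS-OCT4 library than in any other, and OCT4 cells overlapped J1. On the log2 scale the difference was -0.94 for EWS-OCT4 against OCT4 and -0.92 for EWS-OCT4 against J1 (two-sided exact permutation p = 0.1 for each, the smallest possible), and 0.02 for OCT4 against J1 (exact permutation p = 0.9). The overlapping ratios of OCT4 cells and J1 came from different levels, both genes being lower in OCT4 cells. Cdh1 lies on chromosome 8, whose genes were lower against J1 as a whole, and Cdh2 does not; the part of this in the ratios against J1 was not tested. E-cadherin counts remained over 80 times those of N-cadherin in every library.

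Epcam set all 3 groups apart. It had 70.2, 71.2 and 68.4 CPM in EWS-OCT4 cells, 32.9, 31.5 and 33.3 CPM in OCT4 cells, and 102, 111 and 106 CPM in J1. EWS-OCT4 cells therefore lay between OCT4 cells and J1. Against J1, Epcam fell by 0.60 (log2, SE 0.0634, adjusted p = 2.77e-07) in EWS-OCT4 cells and by 1.71 (SE 0.0664, adjusted p = 3.79e-13) in OCT4 cells, and for EWS-OCT4 against OCT4 it was 2.15-fold higher (edgeR, adjusted p = 1.47e-10). Its transcript shares no 31-base word with other genes.

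Both claudins were lower in the stable lines than in J1. Cldn6, a claudin of early embryonic epithelia, had 16.5, 15.8 and 17.1 CPM in EWS-OCT4 cells, 16.9, 18.1 and 18.5 CPM in OCT4 cells, and 31.7, 34.2 and 31.3 CPM in J1. Cldn7, the claudin bound by EPCAM, had 6.01, 5.89 and 6.28 CPM in EWS-OCT4 cells, 6.0, 6.78 and 7.31 CPM in OCT4 cells, and 10.8, 13.9 and 12.3 CPM in J1. For both, the stable lines overlapped each other and lay below every J1 library. Cldn6 was at 0.508 of its J1 level in EWS-OCT4 cells and 0.550 in OCT4 cells (edgeR, adjusted p = 1.52e-08 and 3.69e-08). Cldn7 was at 0.491 and 0.544 of it (adjusted p = 1.48e-06 and 5.48e-06). Against the median of chromosome 11, the log2 fold change of Cldn7 was -0.53 in EWS-OCT4 cells and -0.39 in OCT4 cells, in place of -1.03 and -0.88 (edgeR, adjusted p = 0.00122 and 0.00768). For EWS-OCT4 against OCT4 neither claudin passed, with log2 fold changes of -0.11 (95% interval -0.29 to 0.06, adjusted p = 0.24) for Cldn6 and -0.15 (-0.42 to 0.13, adjusted p = 0.336) for Cldn7.

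**Figure D3:**
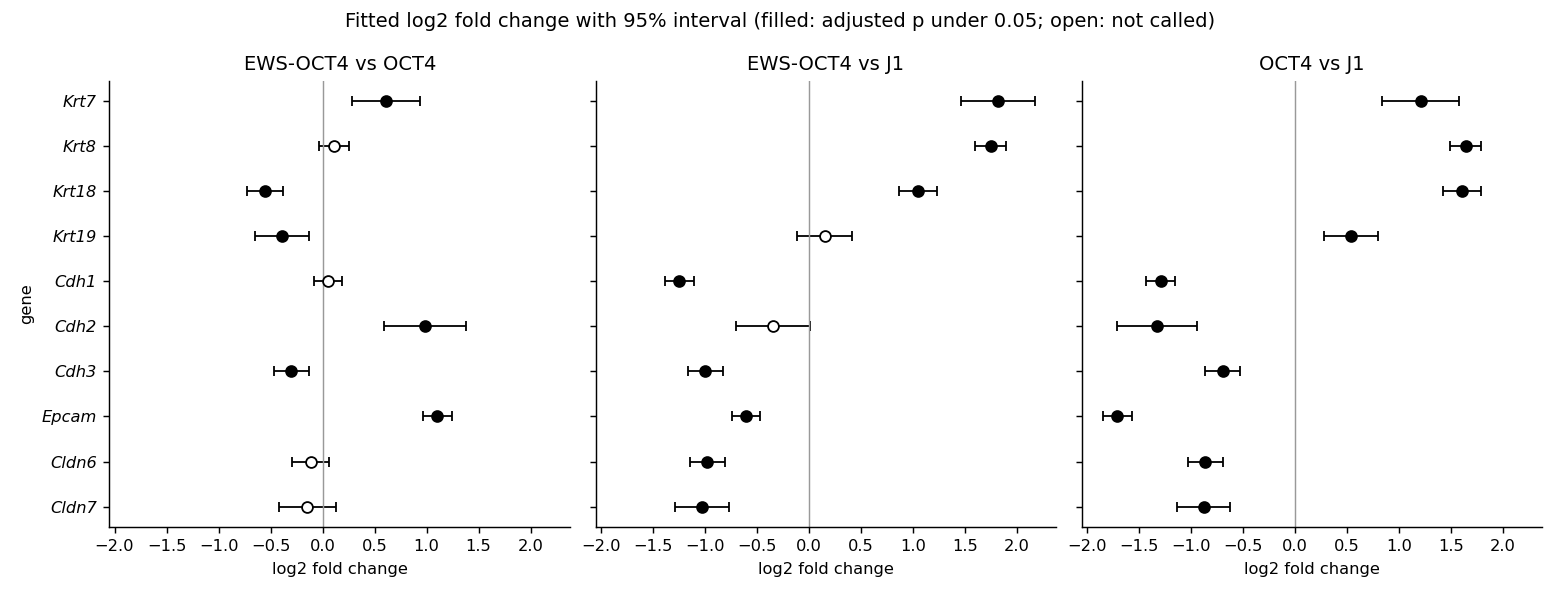
Fitted log2 fold change of each gene with its 95% interval, for EWS-OCT4 against OCT4, EWS-OCT4 against J1 and OCT4 against J1; filled points have adjusted p under 0.05 in edgeR's quasi-likelihood test and open points do not. Against J1 the keratins lie right of 0 and the cadherins, Epcam and claudins left of it, while between the stable lines the values scatter on both sides from -0.55 (Krt18) to 1.10 (Epcam).

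Against J1, 3 of the 10 genes were called higher in EWS-OCT4 cells and 5 lower, where 30.3% and 31.6% of all tested genes were called higher and lower. In OCT4 cells 4 were higher and 6 lower than in J1, beside 34.3% and 32.7% of all genes. For EWS-OCT4 against OCT4, 3 were higher and 3 lower, beside 31.9% and 34.6%. Over both directions 61.9%, 67% and 66.5% of all genes were called in these comparisons, so a call was common among all genes. Of changes of at least 2-fold there were 3 higher and 2 lower against J1 in EWS-OCT4 cells (8.1% and 12.5% of all genes), 3 and 3 in OCT4 cells (15% and 11.5%), and 1 and 0 between the stable lines (8.54% and 15.8%). The median log2 fold change of the 10 was -0.48, -0.78 and -0.03 for EWS-OCT4 against J1, OCT4 against J1 and EWS-OCT4 against OCT4, beside 0.00, 0.01 and -0.04 over all tested genes. The comparisons with J1 share the same J1 libraries.

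**Figure D4:**
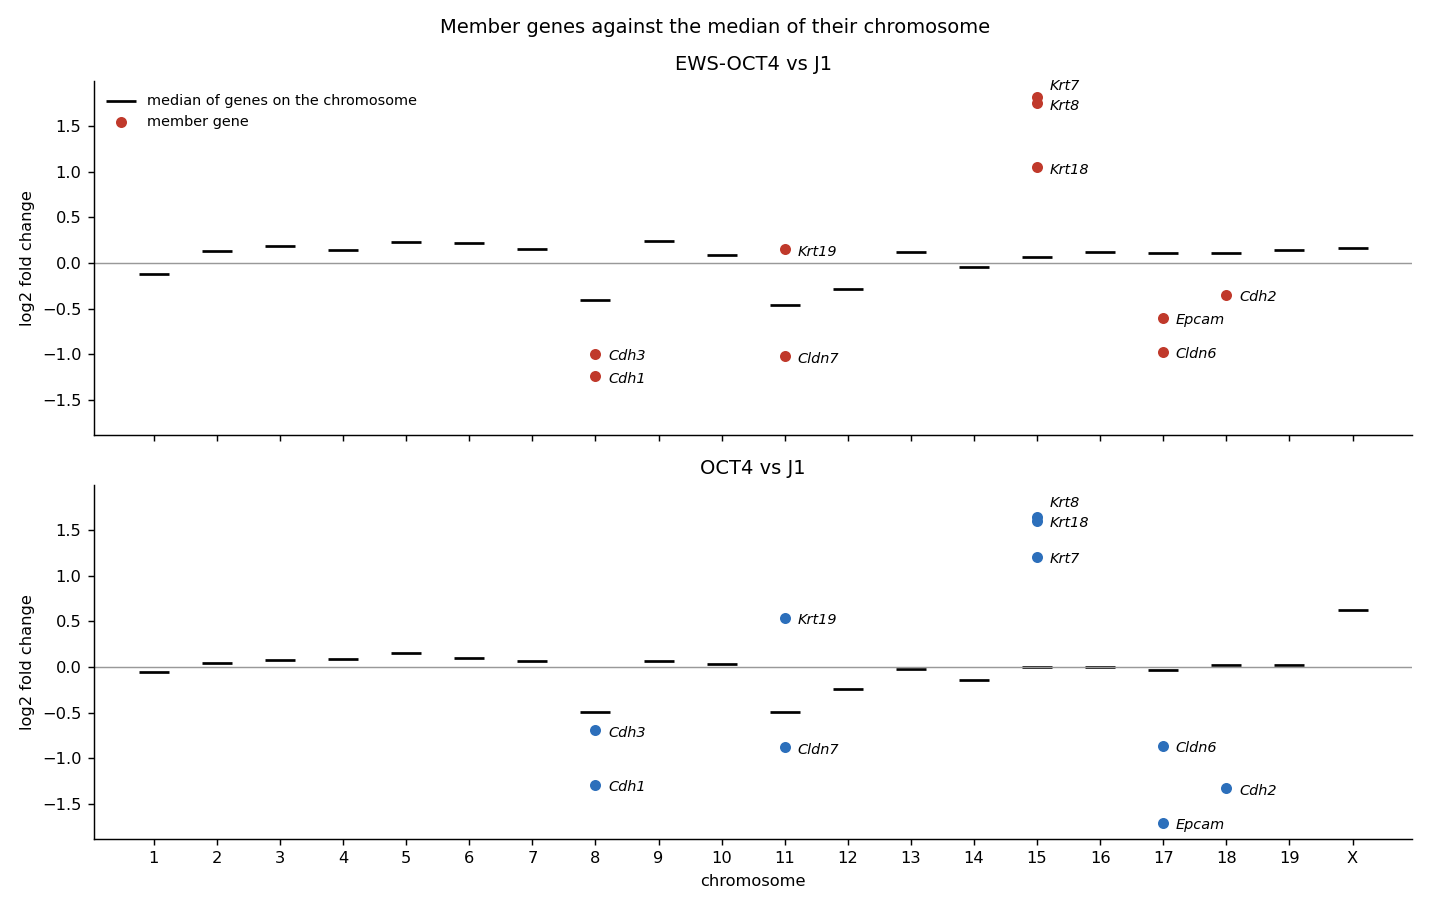
Log2 fold change against J1 of each of the 10 genes (points) and of the median gene on each chromosome (dashes, from genes averaging 5 CPM or more), by chromosome, for EWS-OCT4 cells above and OCT4 cells below. The dashes of chromosomes 8 and 11 lie between -0.41 and -0.49 in both panels, Cdh1, Cdh3 and Cldn7 lie below their dashes, and Krt19 lies above its dash.

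The wider set of keratins, cadherins and claudins did not follow these genes as a whole. The calls in these and the later lists stand beside the shares of all tested genes that were called. These shares were 30.3% higher and 31.6% lower for EWS-OCT4 against J1. They were 34.3% and 32.7% for OCT4 against J1, and 31.9% and 34.6% for EWS-OCT4 against OCT4. Of 14 other keratins only 5 had enough counts to be tested, with 3 higher and 0 lower for EWS-OCT4 against OCT4, 2 higher and 1 lower for EWS-OCT4 against J1, and 0 higher and 2 lower for OCT4 against J1. With a library left out, any of the 9, those lower than in J1 numbered 0 to 3 in EWS-OCT4 cells and 2 to 5 in OCT4 cells, and without J1 replicate 2 or 3 there was 1 higher in OCT4 cells. Against the chromosome medians, 0 in place of 1 were lower in EWS-OCT4 cells than in J1, and 2 in place of 0 were higher in OCT4 cells than in J1. The median log2 fold change of the tested keratins was 0.57 for EWS-OCT4 against OCT4, 0.72 for EWS-OCT4 against J1 and 0.11 for OCT4 against J1. Krt17, a keratin of basal and stressed epithelia, had 13.2 ± 0.632 CPM in EWS-OCT4 cells, 1.49 ± 0.197 CPM in OCT4 cells and 5.78 ± 0.829 CPM in J1 (SD, n = 3). It rose 8.81-fold against OCT4 cells and 2.28-fold against J1 in EWS-OCT4 cells, and it fell in OCT4 cells against J1 (log2 fold change -1.95, adjusted p = 1.07e-08). Krt42 was 2.77-fold and 2.99-fold higher in EWS-OCT4 cells than in OCT4 cells and J1, at 41.4 ± 3.57 CPM. Both shared with Krt7 the highest level in EWS-OCT4 cells. Krt5 and Krt14, keratins of basal epidermis, were not tested for lack of counts, and the 5 surface ectoderm markers, Krt17 among them, summed to 13.3 to 14.9 CPM in EWS-OCT4 cells, 2.56 to 2.91 CPM in OCT4 cells and 5.74 to 7.90 CPM in J1. Krt17 made up most of this sum in EWS-OCT4 cells and J1 and was its largest part in OCT4 cells. Krt5 and Krt14 averaged 0.0429 and 0.170 CPM in EWS-OCT4 cells, 0.176 and 0.103 CPM in OCT4 cells, and 0.265 and 0.508 CPM in J1.

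Of 14 other cadherins 8 were tested, with 1 higher and 1 lower for EWS-OCT4 against OCT4, 2 higher and 4 lower for EWS-OCT4 against J1, and 1 higher and 2 lower for OCT4 against J1, none of those called reaching a mean of 5 CPM. Without EWS-OCT4 replicate 1, 2 in place of 4 were lower for EWS-OCT4 against J1. Cadherin medians were 0.02, -0.57 and -0.28 (log2 fold change) in the order of these comparisons. Of 16 other claudins 8 were tested, and those called went against Cldn6 and Cldn7 in OCT4 cells, where 4 were higher than in J1 and 0 lower. Cldn4, a claudin of tight epithelia, had 34.6, 29.8 and 33.5 CPM in EWS-OCT4 cells, 106, 113 and 122 CPM in OCT4 cells, and 22.1, 29.3 and 24.5 CPM in J1. It was 4.49-fold higher in OCT4 cells than in J1 (edgeR, adjusted p = 2.63e-12), and fell by 1.80 on the log2 scale for EWS-OCT4 against OCT4 (adjusted p = 2.89e-11). Its small excess in EWS-OCT4 cells over J1 (log2 fold change 0.37, adjusted p = 0.00371) was lost against the median of its chromosome (0.16, adjusted p = 0.167). Cldn3, a close relative, was 7.5-fold higher in OCT4 cells than in J1 and fell by 2.31 (log2) for EWS-OCT4 against OCT4. Cldn12 was 1.17-fold higher in EWS-OCT4 cells than in J1 (adjusted p = 0.0221), a call lost without EWS-OCT4 replicate 1, J1 replicate 2 or J1 replicate 3 (adjusted p = 0.108, 0.071 and 0.0573) and under 3 other settings. Of the 8 claudins tested, 0 were higher and 5 lower for EWS-OCT4 against OCT4, and 3 higher and 2 lower for EWS-OCT4 against J1. Without J1 replicate 3, 1 in place of 3 was higher there, and 0 were against the chromosome medians. The median claudin had a log2 fold change of -2.05 for EWS-OCT4 against OCT4, -0.205 for EWS-OCT4 against J1 and 1.26 for OCT4 against J1. Cldn10 and Cldn23 had enough counts to be tested only through the OCT4 libraries, averaging 0.548 and 0.625 CPM there. Their direction in comparisons with OCT4 cells thus came with the filter. With a minimum of 5 CPM in 3 libraries, 2 claudins were lower for EWS-OCT4 against OCT4 and 2 higher for OCT4 against J1.

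Genes of the proteins that link or accompany cadherins mostly were not lower with Cdh1. Of 10 adherens junction partners, 7 were higher and 2 lower in EWS-OCT4 cells than in J1, 4 higher and 3 lower in OCT4 cells than in J1, and 3 higher and 3 lower for EWS-OCT4 against OCT4, with median log2 fold changes of 0.23, 0.05 and 0.02. In OCT4 cells against J1 and between the stable lines, these counts were near the shares of all genes. Ctnna1, which encodes alpha-catenin, had 620, 631 and 631 CPM in EWS-OCT4 cells, 874, 835 and 839 CPM in OCT4 cells, and 414, 411 and 422 CPM in J1. It was 2.04-fold higher in OCT4 cells than in J1 (edgeR, adjusted p = 1.32e-10), in contrast to Cdh1. Nectin3, an adhesion protein of the immunoglobulin family, was 1.94-fold and 1.82-fold higher in EWS-OCT4 cells than in OCT4 cells and J1, and Nectin4 was at 0.496 and 0.356 of their levels. Jup, the gene for plakoglobin, was at 0.852 of its J1 level in EWS-OCT4 cells and 0.786 in OCT4 cells, but it lies on chromosome 11 and against that chromosome's median its log2 fold change was 0.27 and 0.14, in the other direction.

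Of 16 tight junction and polarity genes, 10 were lower in each stable line than in J1, with 3 higher in EWS-OCT4 cells and 4 in OCT4 cells. Median log2 fold changes against J1 were -0.45 in EWS-OCT4 cells and -0.51 in OCT4 cells, and the median was -0.18 for EWS-OCT4 against OCT4. Crb3, a polarity protein of the apical membrane, was at 0.265 and 0.372 of its J1 level in EWS-OCT4 cells and OCT4 cells, and the junction protein gene Marveld3 at 0.184 and 0.283. For EWS-OCT4 against OCT4, 4 were higher and 6 lower, among them the virus receptor and adhesion gene Cxadr at 1.44-fold and occludin (Ocln), a tight junction protein, at 0.676 of the OCT4 cells' level. Of 11 desmosome genes tested, 7 were lower and 3 higher than in J1 in each stable line, and 3 were higher and 5 lower for EWS-OCT4 against OCT4. Dsc3 had enough counts to be tested only through the OCT4 libraries, averaging 1.04 CPM there. Its direction in comparisons with OCT4 cells thus came with the filter. With a minimum of 5 CPM in 3 libraries, 4 desmosome genes were lower for EWS-OCT4 against J1 and 3 for EWS-OCT4 against OCT4. Desmosome genes had a median log2 fold change of -0.635 in EWS-OCT4 cells and -0.26 in OCT4 cells against J1, and of 0.02 for EWS-OCT4 against OCT4. The plaque protein gene Pkp2 was at 0.422 of its J1 level in EWS-OCT4 cells and 0.228 in OCT4 cells. Dsp, encoding desmoplakin, which ties keratin filaments to desmosomes, had 66.9, 69.1 and 65.6 CPM in EWS-OCT4 cells, 162, 156 and 152 CPM in OCT4 cells, and 55.2, 67.4 and 71.7 CPM in J1. Only OCT4 cells stood apart for Dsp, 2.42-fold above J1 (edgeR, adjusted p = 2.73e-10). Perp, a desmosome protein and p53 target, showed the reverse, with 44.7, 39.7 and 40.5 CPM in EWS-OCT4 cells, 10.3, 8.22 and 10.2 CPM in OCT4 cells, and 16.0, 16.8 and 15.5 CPM in J1. It was 4.34-fold and 2.58-fold higher in EWS-OCT4 cells than in OCT4 cells and J1.

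**Figure D5:**
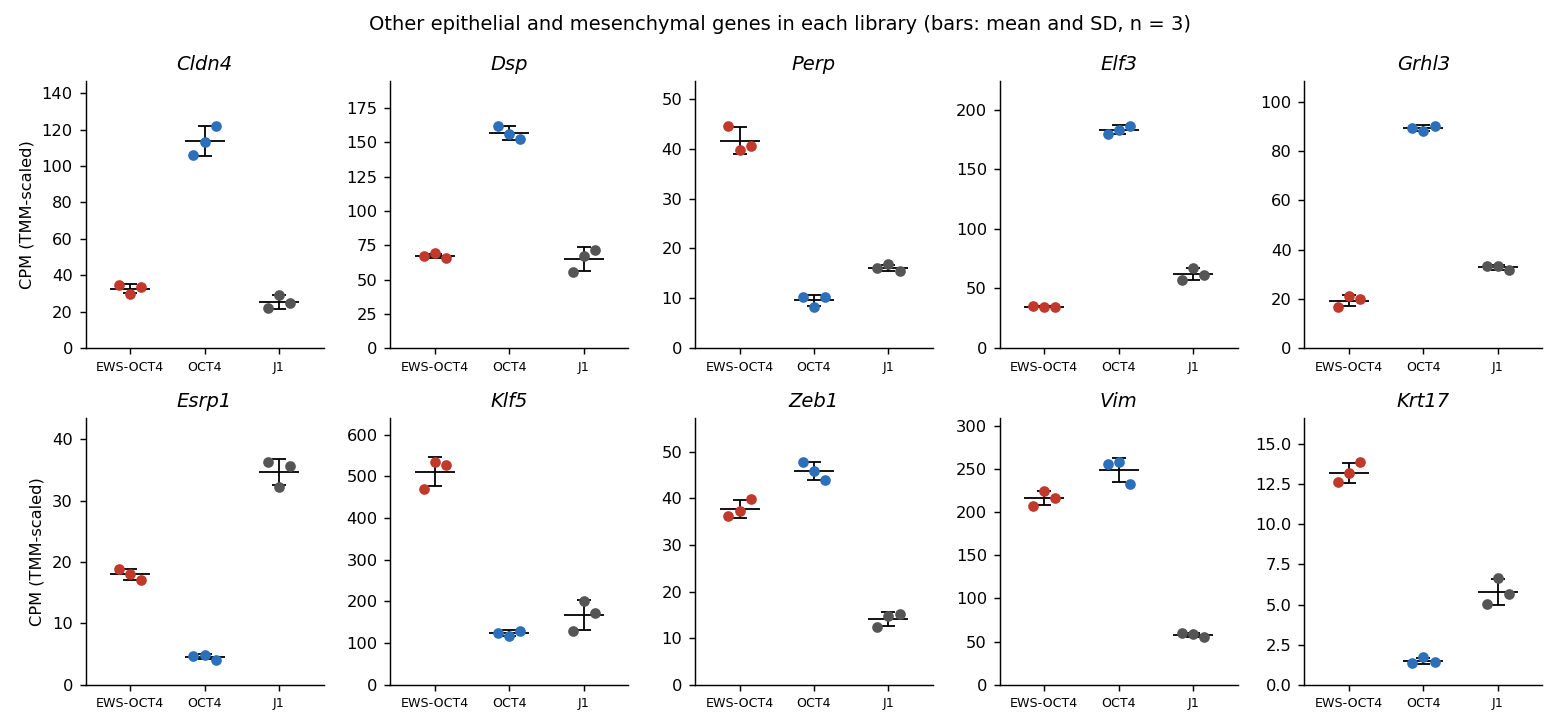
CPM (scaled by TMM factors, vertical axes from 0) in each library of 10 genes named from the wider lists, with EWS-OCT4 cells left, OCT4 cells in the middle and J1 right; points are libraries, bars the mean and SD (n = 3). Cldn4, Dsp, Elf3 and Grhl3 are highest in OCT4 cells, Perp, Klf5 and Krt17 in EWS-OCT4 cells and Esrp1 in J1, while Zeb1 and Vim are higher in both stable lines than in J1.

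The transcription and splicing factors of epithelia went both ways. Of 10 tested, 3 were higher and 6 lower than in J1 in each stable line, and 5 were higher and 3 lower for EWS-OCT4 against OCT4. Ovol1, among those lower in each line, had enough counts to be tested only through J1, averaging 1.54 CPM there. Its direction against J1 thus came with the filter. Against J1 the median was -0.64 in EWS-OCT4 cells and -0.705 in OCT4 cells, and for EWS-OCT4 against OCT4 it was 0.35 (log2 fold changes). Elf3, an epithelial ETS factor, had 35.3, 34.6 and 34.5 CPM in EWS-OCT4 cells, 179, 183 and 187 CPM in OCT4 cells, and 57.4, 67.2 and 61.4 CPM in J1. Grhl3, a grainyhead factor of surface ectoderm, had 16.8, 21 and 20 CPM in EWS-OCT4 cells, 89.3, 88.1 and 90.4 CPM in OCT4 cells, and 33.5, 33.2 and 31.8 CPM in J1. Both were highest in OCT4 cells and lowest in EWS-OCT4 cells, the order of the groups not seen for any of the 10 genes above. Esrp1, a splicing regulator of the epithelial state, had 18.9, 18.1 and 17.0 CPM in EWS-OCT4 cells, 4.76, 4.88 and 4.12 CPM in OCT4 cells, and 36.3, 32.3 and 35.6 CPM in J1, the same order as Epcam. Klf5 was 4.12-fold and 3.06-fold higher in EWS-OCT4 cells than in OCT4 cells and J1, at 510 ± 35.0 CPM. Of 10 epithelial surface proteins and proteases, 5 were higher and 3 lower in EWS-OCT4 cells than in J1, 6 higher and 4 lower in OCT4 cells than in J1, and 3 higher and 4 lower for EWS-OCT4 against OCT4, with median log2 fold changes of 0.44, 0.95 and -0.135. The tetraspanin gene Cd9 was 1.96-fold and 2.69-fold higher in EWS-OCT4 cells and OCT4 cells than in J1. Muc1 fell by 0.46 on the log2 scale for EWS-OCT4 against OCT4 (adjusted p = 0.0307), a call lost without EWS-OCT4 replicate 1 or 3 or OCT4 replicate 2 or 3 (adjusted p up to 0.101).

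Most tested genes of the mesenchymal transition were higher than in J1 in both stable lines. Of 8 tested, 5 were higher and 0 lower in EWS-OCT4 cells and 7 higher and 0 lower in OCT4 cells, while 1 was higher and 6 lower for EWS-OCT4 against OCT4 (3 lower without EWS-OCT4 replicate 1). The median log2 fold change of the 8 was 1.15 for EWS-OCT4 against J1, 1.53 for OCT4 against J1 and -0.25 for EWS-OCT4 against OCT4. Foxc2 had enough counts to be tested only through the OCT4 libraries, averaging 0.867 CPM there. Its direction in comparisons with OCT4 cells thus came with the filter. With a minimum of 5 CPM in 3 libraries, 2 genes were higher than in J1 in EWS-OCT4 cells and 4 in OCT4 cells. Fn1, at 1580 CPM in EWS-OCT4 cells, was not called there against J1 (log2 fold change -0.03, edgeR adjusted p = 0.728). Vim, which encodes vimentin, the intermediate filament of mesenchymal cells, had 207, 224 and 216 CPM in EWS-OCT4 cells, 256, 257 and 233 CPM in OCT4 cells, and 59.7, 58.6 and 55.2 CPM in J1. Zeb1, a repressor of Cdh1, had 36.1, 37.2 and 39.8 CPM in EWS-OCT4 cells, 47.7, 45.9 and 43.9 CPM in OCT4 cells, and 12.3, 14.7 and 15.3 CPM in J1. Vim was 3.73-fold and 4.3-fold higher in EWS-OCT4 cells and OCT4 cells than in J1, and Zeb1 rose by 1.42 on the log2 scale in EWS-OCT4 cells (edgeR, adjusted p = 3.76e-10). Snai1, another repressor of Cdh1, was low, at 2.45 ± 0.236 CPM in EWS-OCT4 cells, 6.80 ± 1.13 in OCT4 cells and 1.92 ± 0.519 in J1 (SD, n = 3), and was 3.57-fold higher in OCT4 cells than in J1. Intermediate filament genes of both epithelial (Krt8, Krt18) and mesenchymal (Vim) kind were thus higher in the stable lines. Markers of other cell types went both ways beside Vim. The 7 fibroblast markers summed to 23.0 to 26.3 CPM in EWS-OCT4 cells, 34.0 to 40.0 CPM in OCT4 cells and 68.5 to 87.5 CPM in J1, with Dcn at 0 in EWS-OCT4 cells, Lum at 0 in OCT4 cells and both at 0 in J1. Thy1 and Col1a1 made up most of these sums, and only 3 of the 7 had enough counts to be tested. Thy1 and Col1a1 were lower than in J1 in both stable lines, and Col1a2 only in EWS-OCT4 cells. The 6 neural markers summed to 95.6 to 97.1 CPM in EWS-OCT4 cells, 73.0 to 75.5 CPM in OCT4 cells and 73 to 103 CPM in J1, with Neurog2 at 0 in EWS-OCT4 cells. Of the 4 neural markers tested, 3 were higher and 1 lower in EWS-OCT4 cells than in J1, and 2 were higher and 2 lower in OCT4 cells than in J1. Nes, which encodes nestin, an intermediate filament of neural progenitors, rose in both lines against J1 (log2 fold change 0.89 in EWS-OCT4 cells and 1.05 in OCT4 cells, edgeR adjusted p = 0.000184 and 3.17e-05), as did the neural factor Sox1 (1.29 and 2.59). Sox1 was low, averaging 2.01 CPM in EWS-OCT4 cells, 4.94 CPM in OCT4 cells and 0.825 CPM in J1. Pax6, a factor of neural and eye progenitors, rose in EWS-OCT4 cells (2.37) and fell in OCT4 cells (-2.13) against J1, and Tubb3, a neuronal tubulin, fell in both (-0.44 and -1.24). The 8 primitive endoderm markers summed to 10.7 to 12.2 CPM in EWS-OCT4 cells, 23.1 to 25.8 CPM in OCT4 cells and 40.4 to 48.6 CPM in J1, none of them at 0. Dab2 and Cubn made up most of the J1 sum, with means of 17.9 and 14.99 CPM. Against the direction of the sum, Gata6 was higher in OCT4 cells than in J1 (log2 fold change 2.41, edgeR adjusted p = 1.17e-06) and Sox7 was higher in EWS-OCT4 cells than in J1 (2.14, adjusted p = 8.19e-05). Sox7 was low, averaging 2.71 CPM in EWS-OCT4 cells and 0.5965 CPM in J1. The 5 mesendoderm markers summed to 3.38 to 4.76 CPM in EWS-OCT4 cells, 6.26 to 6.78 CPM in OCT4 cells and 3.20 to 3.27 CPM in J1. Of the 4 tested, Gsc and Kdr were higher and T and Mixl1 lower in OCT4 cells than in J1. Only Gsc was called in EWS-OCT4 cells against J1, where it was higher. The part of such cells in the values of Vim, Zeb1 and Cdh2 was not tested.

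The genes whose values ran closest to those of each of the 10 across the 9 libraries were sought among about 10372 tested genes, by the root mean square difference of centred log2 CPM. For Epcam the nearest was Phc1, a Polycomb gene, with a difference of 0.0489 beside Epcam's own spread of 0.707, followed by Urb2 and Odc1. For Cdh1 these were Dhx57, Serpine2 and Slc7a6 (0.0732 to 0.0881), for Krt8 Coa8, Ccnd3 and Bag5 (0.0682 to 0.0773), and for Krt18 Scrn3, Evi5l and Uap1l1 (0.0931 to 0.102). Krt7 had no gene as near, Dync2i1 being first at 0.13. The nearest were Lrfn1 for Krt19 (0.0925), Ftsj3 for Cdh2 (0.0557), Syngr2 for Cdh3 (0.0634), Ube2o for Cldn6 (0.0563) and Sucla2 for Cldn7 (0.0681). Among the 10 genes themselves, Cldn6 and Cldn7 were the nearest pair at 0.0752, and Cldn6 was the second nearest gene of all to Cldn7. Krt8 and Krt18 differed by 0.328, and Krt8 was closer to Krt7, at 0.299. The 9 points of each gene come from 3 groups of libraries.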

How the data were processed

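Total RNA was extracted with RNAiso Plus and made into libraries with the CORALL V2 kit, per the labels' protocols. What the authors deposited is 1 table a library of raw counts by gene symbol, in whole numbers. Among tools and builds, the submitters' processing notes list fastp, STAR, Salmon, GATK and GRCm39. The sources used here do not give the annotation, the use of strand or the handling of molecular identifiers, so counts of overlapping or near-identical genes are uncertain.

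Sample titles gave the groups and replicate numbers. Genes passed filterByExpr (minimum count 10, minimum total 15) and TMM factors were 0.958 to 1.03. A single edgeR model (version 4.0.16, in R 4.3.3) held all 9 libraries, using glmQLFit with robust estimation and glmQLFTest. Benjamini-Hochberg adjustment ran over all 16562 genes, with a threshold of 0.05, and list members counted as higher or lower passed it. SE is the log2 fold change over the square root of F. Ratios used counts plus 0.5 and two-sided exact permutation tests. The model was tested on simulated data. GENCODE M21 (GRCm38) gave the longest coding transcript of each of the 10 genes, for levels per kilobase, and chromosomes for 15063 tested genes. The offset for chromosomes used the median over genes averaging 5 CPM or more.

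All 10 genes are named. From each wider list the genes eligible were up to 2 a direction and comparison, with the largest called changes and averaging 5 CPM or more in the higher group, and values are printed for a choice of these made after they were seen. Cell type markers were named likewise, or to show how a marker sum or list was made up. Some of these markers, and some list genes named to show a limit, averaged under 5 CPM. The genes and lists were chosen with earlier results of these data known.

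Alternatives were scaling by RLE or upper quartile, leaving the low-count filter out, requiring 5 CPM in 3 libraries, DESeq2 1.42.0, limma-voom (limma 3.58.1), only the 6 libraries of a comparison, a replicate block, each library left out, ratios with counts plus 1, and an offset for the chromosome's median.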

Additional observations from a re-analysis of the deposited data

How the results depend on the processing

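Of the 10 genes in 3 comparisons, the calls that changed under an alternative were those given above for Krt8, Krt19 and Cdh2, and no member reversed. The numbers of the 10 genes called stayed within 1 of those reported under every alternative that was run, and all genes called ranged from 8163 to 11815 for EWS-OCT4 against OCT4, 7499 to 10867 for EWS-OCT4 against J1 and 8235 to 12052 for OCT4 against J1. With a minimum of 5 CPM in 3 libraries, Cdh2 was not tested. Under the chromosome offset Jup reversed to 0.27 (EWS-OCT4 against J1) and 0.14 (OCT4 against J1). List counts moved with the low-count filter, which sets how many members are tested: other keratins lower in OCT4 cells than in J1 numbered 2, and 7 with no filter, and mesenchymal genes higher in EWS-OCT4 cells than in J1 numbered 5, and 2 with the minimum of 5 CPM. Adherens junction partners higher for EWS-OCT4 against OCT4 numbered 3, and 5 with only the 6 libraries compared. Ratios with counts plus 1 kept their direction. Depth limits Cdh2 most, with 39 to 137 counts a library.

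The Cdh1/Cdh2 log2 ratio for OCT4 against J1 was 0.02 and ranged from -0.0601 to 0.162 with 1 library left out, and that of Krt8/Krt18 was 0.03 and ranged from -0.0301 to 0.0823, so neither kept a direction. For EWS-OCT4 against OCT4 and against J1 the ranges were -1.01 to -0.89 and -0.995 to -0.773 for Cdh1/Cdh2, and 0.62 to 0.70 and 0.63 to 0.74 for Krt8/Krt18. The ratios were not computed with the chromosome offset. Under it, Cdh1 and Cdh2 had log2 fold changes of -0.81 and -1.35 for OCT4 against J1, and of -0.78 and -0.43 for EWS-OCT4 against J1.

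Replicate numbers are shared by the groups but the labels do not say that they pair samples. Same-numbered libraries correlated by -0.0362 to 0.283 in their deviations from group means. With the replicate number as a block, 11246, 10534 and 11356 genes were called in the order EWS-OCT4 against OCT4, EWS-OCT4 against J1 and OCT4 against J1, and no call of the 10 genes changed. For ratios, the paired differences were the same as the unpaired ones, -0.94, -0.92 and 0.02 for Cdh1/Cdh2 and 0.66, 0.70 and 0.03 for Krt8/Krt18, with a smallest possible p of 0.25.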
